A study of Mus musculus with 9 samples.

Results

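The proteasome subunits described here are the 36 genes, of 54532 listed, whose symbol is Psma, Psmb, Psmc or Psmd followed by a number, without the inducible subunits Psmb8, Psmb9 and Psmb10. They were followed in 9 RNA-seq libraries of B.END3 cells (also written b.end3), an endothelial cell line from mouse brain that the labels call rat. Control cells (Ctrl, 3 libraries) received no photodynamic therapy (PDT). Cells of the PDT groups were kept for 90 min in 300 µg/mL porfimer sodium, a photosensitizer that forms reactive oxygen species under red light, and were then exposed to a 635 nm laser at 100 mW/cm2. The light dose was 10 J/cm2 in Ep1 (3 libraries) and 20 J/cm2 in Ep2 (3 libraries). No drug or light dose is listed for Ctrl, and whether these cells had the drug or the light alone is not stated. The effects of drug and light therefore cannot be told apart in comparisons with Ctrl. Ep1 and Ep2 had the same drug dose and incubation and differed in the light dose. The time between the light and cell lysis is not given in the sources used here, and no label says that the libraries of a group came from separate cultures, so p-values measure only the spread between these libraries.

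The proteasome is the large protease that degrades ubiquitin-tagged proteins, and it also degrades proteins damaged by oxidation. Its core particle is a barrel of alpha and beta rings, and only some beta subunits cut peptide bonds. Its regulatory particle sits on the barrel, where a base with a ring of ATPases unfolds substrates and a lid removes ubiquitin. Cells with too little proteasome activity are known to raise the transcription of most subunit genes together through NRF1, the product of Nfe2l1, and oxidative stress can act on some of them through NRF2, the product of Nfe2l2. Both factors bind antioxidant response elements together with small Maf proteins.

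The stretches of 250 bases before the transcription start of 4 members, from RefSeq on GRCm38.p6, are shown because these members carried the rise common to both doses (Psmd11), the largest falls at the higher dose (Psmb6 and Psmb3), and the chymotrypsin-like activity (Psmb5). Each reads 5′ to 3′ along the gene, and capitals mark matches to the motifs searched, which were the antioxidant response element core TGACNNNGC, the CCAAT box and the ETS motif CCGGAAG.
Psmd11 (chr11:80428365-80428614, + strand): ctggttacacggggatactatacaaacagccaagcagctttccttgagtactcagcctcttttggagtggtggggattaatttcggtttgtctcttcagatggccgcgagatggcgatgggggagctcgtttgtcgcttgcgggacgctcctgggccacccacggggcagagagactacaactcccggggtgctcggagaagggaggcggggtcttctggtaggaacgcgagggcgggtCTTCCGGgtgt
Psmb6 (chr11:70525107-70525356, + strand): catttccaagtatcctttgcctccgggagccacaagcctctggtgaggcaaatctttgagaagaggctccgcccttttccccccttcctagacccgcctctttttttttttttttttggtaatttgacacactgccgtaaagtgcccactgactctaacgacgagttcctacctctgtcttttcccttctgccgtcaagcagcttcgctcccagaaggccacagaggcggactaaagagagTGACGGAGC
Psmb3 (chr11:97703184-97703433, + strand): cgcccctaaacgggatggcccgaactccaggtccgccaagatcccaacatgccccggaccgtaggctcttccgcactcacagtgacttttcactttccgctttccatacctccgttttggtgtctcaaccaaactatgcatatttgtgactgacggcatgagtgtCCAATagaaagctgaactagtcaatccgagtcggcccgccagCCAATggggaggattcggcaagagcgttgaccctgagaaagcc
Psmb5 (chr14:54617996-54618245, - strand): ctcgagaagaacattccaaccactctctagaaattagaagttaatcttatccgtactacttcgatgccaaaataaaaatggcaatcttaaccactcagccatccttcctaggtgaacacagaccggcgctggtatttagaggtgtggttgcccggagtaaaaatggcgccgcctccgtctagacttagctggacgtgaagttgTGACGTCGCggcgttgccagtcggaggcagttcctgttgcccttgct
Counted back from the start, the element core lay at -9 to -1 in Psmb6 and at -47 to -39 in Psmb5, 2 CCAAT boxes lay at -85 to -81 and -43 to -39 in Psmb3, and the ETS motif lay on the opposite strand at -11 to -5 in Psmd11. A promoter was listed for 29 of the 36 members. Both strands were searched, no matches overlapped each other, and a gene counted when any of its listed promoters held the motif. The element core was found in 5 of 29 members (17.2%) against 11.5% of the 27025 mouse genes with a listed promoter, the CCAAT box in 12 of 29 (41.4%) against 37.5%, and the ETS motif in 9 of 29 (31.0%) against 7.8%. The members with the element core were Psmb5, Psmb6, Psmc6, Psmd12 and Psmd9. A match describes the letters only and was not tested as a binding site.

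Expression was given in FPKM, the number of sequenced fragments on a gene scaled to the length of the gene and to the fragments of the library. The libraries held 16240688 to 19509225 fragments. The 11727 genes that reached an FPKM of 1 in 3 or more libraries were tested, and differences are log2 fold changes of FPKM + 1, given with their standard error (SE). A gene was called at a limma adjusted p-value below 0.05. The label of the cells was checked against marker genes, and it was only partly met: 3 of 12 endothelial markers reached the filter, Emcn and Erg were at 0 in all libraries, and Pecam1 was at 0.143 ± 0.0558 FPKM (SD, n = 3) in Ctrl. The summed level of the 6 epithelial markers was 1029 to 1081 FPKM in Ctrl, 936.8 to 1041 FPKM in Ep1 and 1155 to 1372 FPKM in Ep2. This sum came mainly from Krt8, Krt18 and Krt19. Krt7 was at 0 in all libraries, and Cdh1 and Epcam had Ctrl means of 0.0338 and 0.812 FPKM. The summed level of the endothelial markers was 11.27 to 11.76, 11.24 to 13.02 and 14.19 to 15.25 FPKM, respectively. It came mainly from Flt1, with means of 6.90 FPKM in Ctrl and 10.9 FPKM in Ep2 (adjusted p = 9.67e-05, limma). The other tested endothelial markers, Egfl7 and Eng, had lower means in Ep2 than in Ctrl and were not called. In bulk RNA, a change in the mix of cells and a change in RNA per cell cannot be told apart, and the part of these markers in the results below was not tested.

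Of the 36 members, 34 passed the filter. Psma8, the alpha subunit of the testis proteasome, had 0 fragments in every library, and counting error alone allows up to 3 fragments at such a 0. Psmb11, the thymus-specific beta subunit, had 0 to 8 fragments per library, that is at most 0.0893 FPKM. The other members were abundant and even between libraries. In Ctrl they ranged from 6.29 ± 0.106 FPKM (SD, n = 3) for the assembly chaperone Psmd9 to 229 ± 3.75 FPKM for the structural beta subunit Psmb4, with Psma5 (198 ± 6.33 FPKM) and Psmb5 (191 ± 11.8 FPKM) next in order. Psma5 and Psmb5 overlapped between libraries, while Psmb4 lay above both in every library. The 3 chaperones of base assembly, Psmd10, Psmd5 and Psmd9, held the 3 lowest levels.

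The first comparison set PDT at the lower light dose against Ctrl. Between Ep1 and Ctrl, the proteasome subunits hardly differed: 1 of 34 members rose (2.94%, against 6.32% of all tested genes) and 0 fell (against 4.97%), by limma with Benjamini-Hochberg adjustment. At an unadjusted limma p below 0.05, 4 of the 34 members were higher and 2 were lower. Of all 11727 tested genes, 1747 were higher and 1707 were lower at that threshold. The members' log2 fold changes spanned -0.12 to 0.25 with a median of 0.016, and the median of all tested genes was -0.0093. For the 33 members not called, the 95% intervals of the difference stayed between -0.22 and 0.26. All 3 Ep1 libraries lay above all 3 Ctrl libraries in 8 members and below them in 4, while this held for 20.8% (above) and 20.5% (below) of all tested genes.

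The member that rose was Psmd11, a scaffold subunit of the lid (chr11:80428615-80473248, + strand, GRCm38). Its level was 33.9, 32.7 and 35.3 FPKM in Ctrl, 41.5, 39.5 and 41.1 FPKM in Ep1, and 40.6, 39.7 and 39.4 FPKM in Ep2. Every PDT library lay above every Ctrl library, and the PDT groups overlapped with each other. The rise was 0.25 (SE 0.0412, adjusted p = 0.00989, limma) in Ep1 and 0.23 (SE 0.0412, adjusted p = 0.00142, limma) in Ep2. The Ep1 call was lost without Ctrl replicate 2, without Ep1 replicate 3 or with a correction for gene length and GC content (adjusted p up to 0.0792), and that correction also ended the Ep2 call (log2 fold change 0.052, adjusted p = 0.324).

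The next smallest adjusted p-values in Ep1 belonged to Psmd1, the large scaffold of the base, and Psma7, an alpha subunit, and neither passed. Psmd1 was at 35.7, 35.5 and 36.8 FPKM in Ctrl, 39.4, 38.9 and 40.1 FPKM in Ep1, and 35.4, 37.5 and 39.7 FPKM in Ep2. All Ep1 libraries exceeded Ctrl, whereas Ep2 overlapped with both. The difference was 0.13 (SE 0.0463, adjusted p = 0.0990, limma) in Ep1 and 0.057 (adjusted p = 0.323, limma) in Ep2. Psma7 was at 154, 163 and 158 FPKM in Ctrl, 142, 151 and 146 FPKM in Ep1, and 129, 135 and 127 FPKM in Ep2. The 3 groups did not overlap, with Ctrl highest and Ep2 lowest. Its difference was -0.12 (SE 0.0421, adjusted p = 0.103, limma) in Ep1, and in Ep2 it fell by 0.28 (SE 0.0421, adjusted p = 0.000454, limma).

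At the higher dose, most subunit genes fell by a small amount. Between Ep2 and Ctrl, 20 of 34 members fell (58.8%, against 29.3% of all tested genes) and 2 rose (5.88%, against 23.9%). The members' log2 fold changes spanned -0.48 to 0.23, short of the study's threshold of 0.6 for DEGs, with a median of -0.15, and the median of all tested genes was -0.029. Members are abundant genes, and among the 7535 genes that reached an FPKM of 5 in 3 or more libraries 37.3% fell and 26.9% rose. All 3 Ep2 libraries lay below all 3 Ctrl libraries in 22 members and above them in 3, against 32.7% (below) and 27.0% (above) of all tested genes. The 2 members that rose were Psmd11 and Psmd8, and of the 20 that fell, 15 did so under all 18 alternatives. Only Psmd11 was called at both doses, 20 members were called lower in Ep2 and not in Ep1, and 12 were called at neither. Of all tested genes, 4.97% were called lower in Ep1 and 29.3% in Ep2, so a fall called in Ep2 alone was not particular to the members.

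**Figure D1:**
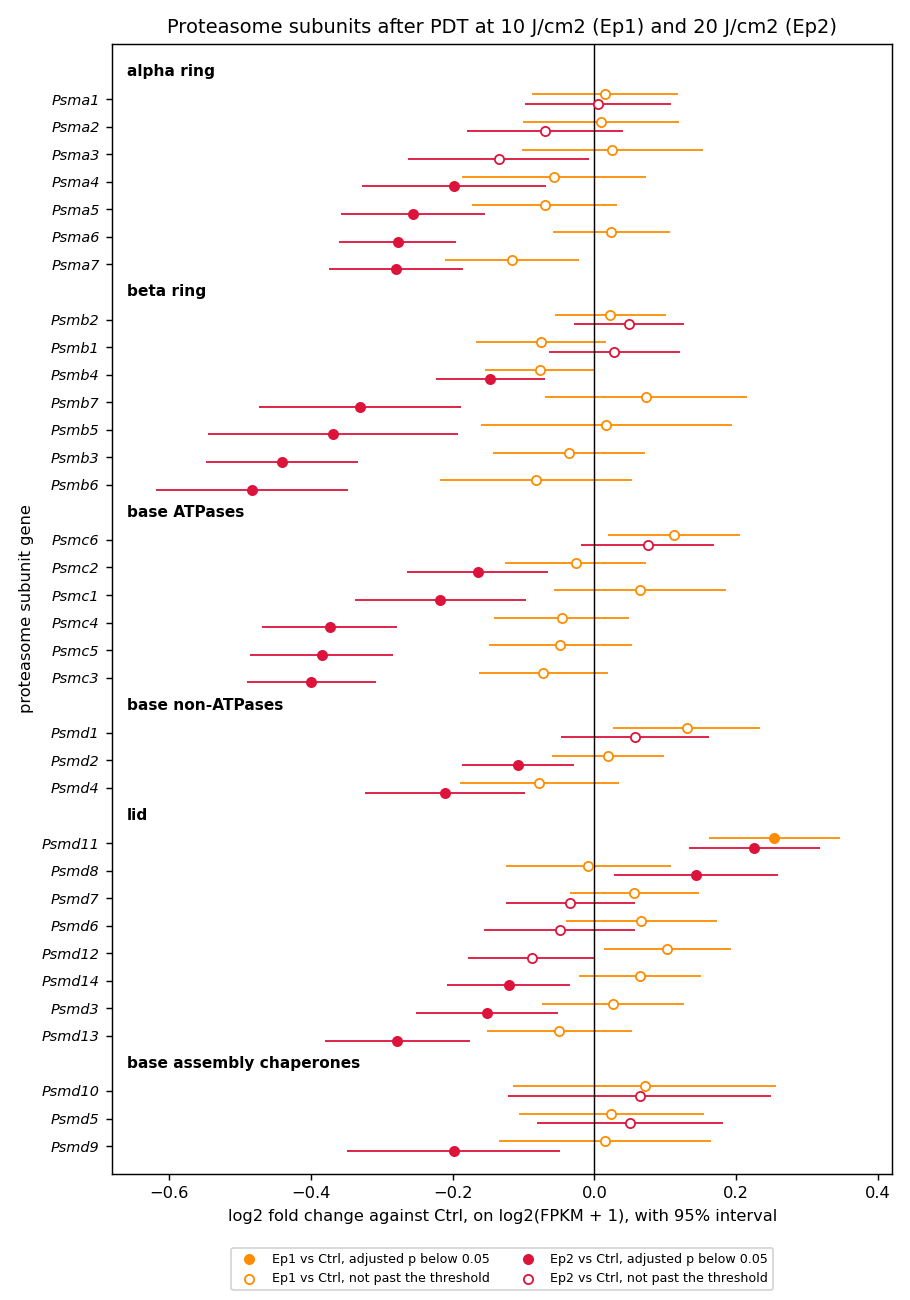
Log2 fold change of FPKM + 1 against Ctrl (x axis) of the 34 tested proteasome subunit genes (y axis, grouped by subcomplex and sorted by Ep2), for Ep1 (orange) and Ep2 (red), with 95% intervals as lines and filled points at a limma adjusted p below 0.05. In Ep1 the points lie between -0.12 and 0.25 with 1 filled, and in Ep2 they reach -0.48 with 22 filled.

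The direct comparison of the doses gave a similar count. Between Ep2 and Ep1, 19 of 34 members fell (55.9%, against 25.2% of all tested genes) and 1 rose (2.94%, against 18.8%). The median was -0.15, against -0.015 over all tested genes. The member that rose was Psmd8, a lid subunit, by 0.15 (adjusted p = 0.0383, limma). Both comparisons of Ep2 share the Ep2 libraries, so they are not independent of each other.

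**Figure D2:**
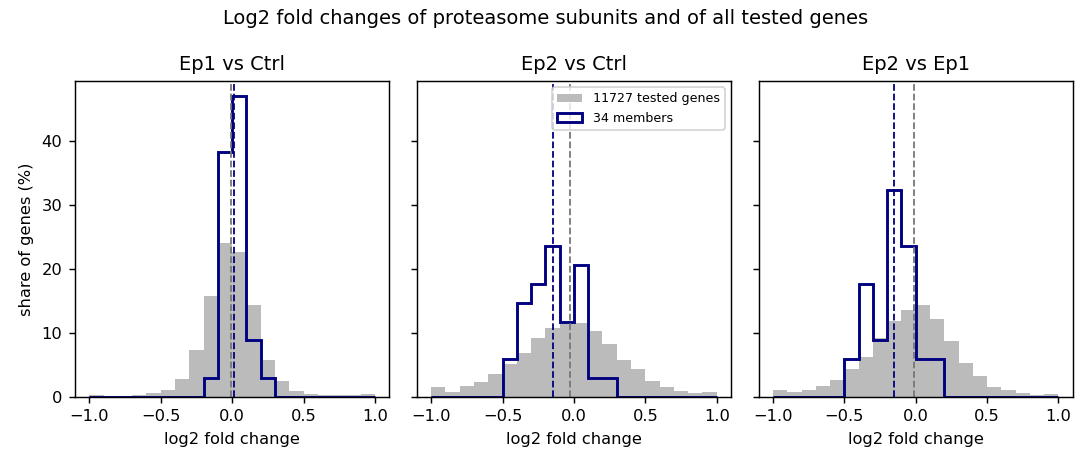
Share of genes in percent (y axis) by log2 fold change in steps of 0.1 (x axis) for 34 proteasome subunits (blue line) and 11727 tested genes (grey bars), with dashed lines at the medians and values beyond 1 placed in the outermost bars. The members' median is 0.016 in Ep1 against Ctrl, -0.15 in Ep2 against Ctrl and -0.15 in Ep2 against Ep1.

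In the alpha ring, whose subunits form the gate of the barrel, 4 of 7 tested members fell in Ep2 (57.1%, against 29.3% of all tested genes and 37.3% of those that reached an FPKM of 5). The 4 were Psma4, Psma5, Psma6 and Psma7. Psma7 had the largest fall, with the values given above, and Psma6 fell by 17.6% of its Ctrl mean (log2 fold change -0.28, adjusted p = 0.000220, limma). Psma1 was at the other end, at 62.6, 63.4 and 68.4 FPKM in Ctrl, 65.0, 67.2 and 64.0 FPKM in Ep1, and 62.8, 67.1 and 65.0 FPKM in Ep2. Its groups overlapped, and its difference in Ep2 was 0.0045, with a 95% interval of -0.098 to 0.11. Psma3 missed the threshold at -0.14 (adjusted p = 0.0716, limma), although its Ep2 libraries all lay below Ctrl.

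The beta ring holds the active sites, and 5 of its 7 tested members fell in Ep2 (71.4%, against the same 29.3% and 37.3%), among them all 3 constitutive catalytic subunits. Psmb6, which carries the caspase-like activity (chr11:70525367-70527858, + strand, GRCm38; its promoter is shown above), was at 127, 133 and 134 FPKM in Ctrl, 120, 129 and 123 FPKM in Ep1, and 95.5, 101 and 85.5 FPKM in Ep2. Ep1 overlapped with Ctrl, and every Ep2 library lay below every other library. It fell by 28.5% in Ep2 (log2 fold change -0.48, SE 0.0602, adjusted p = 0.000155, limma), the largest fall among the members, and its difference in Ep1 was -0.083 (adjusted p = 0.396, limma).

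Psmb7, which carries the trypsin-like activity (chr2:38588036-38644087, - strand, GRCm38), was at 72.9, 74.9 and 77.1 FPKM in Ctrl, 78.9, 78.7 and 79.0 FPKM in Ep1, and 63.3, 62.5 and 52.9 FPKM in Ep2. Ep1 lay above Ctrl in every library and Ep2 below it. It fell by 20.5% in Ep2 (log2 fold change -0.33, SE 0.0634, adjusted p = 0.00187, limma), and its difference in Ep1 was 0.073 (adjusted p = 0.477, limma). Psmb5, which carries the chymotrypsin-like activity (chr14:54614119-54618022, - strand, GRCm38), was at 191, 202 and 179 FPKM in Ctrl, 185, 199 and 194 FPKM in Ep1, and 159, 155 and 129 FPKM in Ep2. Ep1 overlapped with Ctrl and all Ep2 libraries lay below both. It fell by 22.5% in Ep2 (log2 fold change -0.37, SE 0.0786, adjusted p = 0.00337, limma), and in Ep1 the difference was 0.017 with a 95% interval of -0.16 to 0.19.

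The other 2 called members of the ring were the structural subunits Psmb3, which fell by 26.5% (log2 fold change -0.44, adjusted p = 6.82e-05, limma), and Psmb4, which fell by 9.70% (log2 fold change -0.15, adjusted p = 0.00545, limma). Psmb2, also structural, was at 94.2, 95.4 and 94.8 FPKM in Ctrl, 93.2, 97.6 and 98.3 FPKM in Ep1, and 97.3, 97.9 and 99.0 FPKM in Ep2. Its Ep2 libraries all lay slightly above Ctrl, and the difference of 0.049 (95% interval -0.030 to 0.13, adjusted p = 0.267, limma) did not pass. Psmb1 was at 71.2 ± 1.84, 67.5 ± 1.09 and 72.6 ± 2.92 FPKM (SD, n = 3) in Ctrl, Ep1 and Ep2, and no comparison of it passed.

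The ATPases of the base, which unfold substrates and feed them into the barrel, fell in 5 of 6 cases in Ep2 (83.3%, against the same 29.3% and 37.3%). Psmc3 had the largest fall, and its levels were 110, 111 and 112 FPKM in Ctrl, 102, 109 and 105 FPKM in Ep1, and 84.3, 86.3 and 80.6 FPKM in Ep2. The 3 groups did not overlap. Psmc3 fell by 24.4% in Ep2 (log2 fold change -0.40, SE 0.0404, adjusted p = 4.85e-05, limma), and its difference in Ep1 was -0.073 (adjusted p = 0.264, limma). Psmc5 fell by 23.5%, Psmc4 fell by 23.1%, Psmc1 fell by 14.1% and Psmc2 fell by 11.1%. Psmc6 went the other way, with 48.0, 46.5 and 49.9 FPKM in Ctrl, 50.5, 52.8 and 53.0 FPKM in Ep1, and 51.2, 51.6 and 49.4 FPKM in Ep2. Ep1 lay above Ctrl in every library, Ep2 overlapped with Ctrl, and neither difference passed (0.11 with adjusted p = 0.109 in Ep1, 0.075 with adjusted p = 0.157 in Ep2, limma).

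Among the non-ATPase subunits of the base, Psmd4, a ubiquitin receptor, fell in Ep2, and so did Psmd2, a scaffold (2 of 3, 66.7%, against 29.3% of all tested genes). Psmd4 was at 96.4, 98.0 and 89.8 FPKM in Ctrl, 87.7, 90.3 and 90.9 FPKM in Ep1, and 86.9, 79.6 and 78.7 FPKM in Ep2. Only Ep2 lay fully below Ctrl, and the fall was 13.7% (log2 fold change -0.21, SE 0.0501, adjusted p = 0.00607, limma). Psmd2 fell by 7.20% (adjusted p = 0.0272, limma), but its call was lost in 9 of 18 alternatives. Psmd1, described above, completed the group and did not pass in any comparison.

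The lid, which includes the deubiquitinase Psmd14, had 2 of 8 members higher in Ep2 (25%, against 23.9% of all tested genes) and 3 lower (37.5%, against 29.3%), shares near those of all tested genes. Psmd13 had the largest fall and was at 38.5, 40.7 and 40.0 FPKM in Ctrl, 37.1, 39.4 and 38.5 FPKM in Ep1, and 32.6, 34.0 and 31.2 FPKM in Ep2. Ep1 overlapped with Ctrl and Ep2 lay below both. It fell by 18.0% (log2 fold change -0.28, SE 0.0454, adjusted p = 0.000742, limma). Psmd3 and Psmd14 fell by 10.1% and 8.11%, and their calls were lost in 5 and 6 of 18 alternatives, respectively. Psmd8, named after its values were seen, was at 64.0, 66.9 and 64.0 FPKM in Ctrl, 64.3, 64.3 and 65.1 FPKM in Ep1, and 77.7, 70.8 and 67.4 FPKM in Ep2. All Ep2 libraries lay above Ctrl and Ep1, by a small margin in Ep2 replicate 3. The rise of 0.14 (SE 0.0516, adjusted p = 0.0407, limma) was lost in 11 of 18 alternatives. Psmd6, Psmd7 and Psmd12 were not called in Ep1 or Ep2 against Ctrl, and Psmd12 fell between Ep1 and Ep2 by 0.19 (adjusted p = 0.00401, limma).

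The 3 chaperones, which guide assembly of the base and leave the finished particle, had 1 call, a fall in Ep2 (33.3%, against 29.3% of all tested genes). Psmd9 was at 6.33, 6.17 and 6.38 FPKM in Ctrl, 5.94, 6.70 and 6.47 FPKM in Ep1, and 5.94, 4.96 and 5.19 FPKM in Ep2. Ep2 lay below Ctrl in every library, and the fall of 0.20 (SE 0.0666, adjusted p = 0.0302, limma) was lost in 8 of 18 alternatives. Psmd10, also known as gankyrin, was at 16.1, 16.8 and 17.5 FPKM in Ctrl, 17.9, 17.5 and 17.7 FPKM in Ep1, and 20.6, 16.5 and 16.0 FPKM in Ep2. The high Ep2 value came from replicate 1 alone, and the difference of 0.064 had a 95% interval of -0.12 to 0.25. Psmd5 gave 0.050 with an interval of -0.080 to 0.18.

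**Figure D3:**
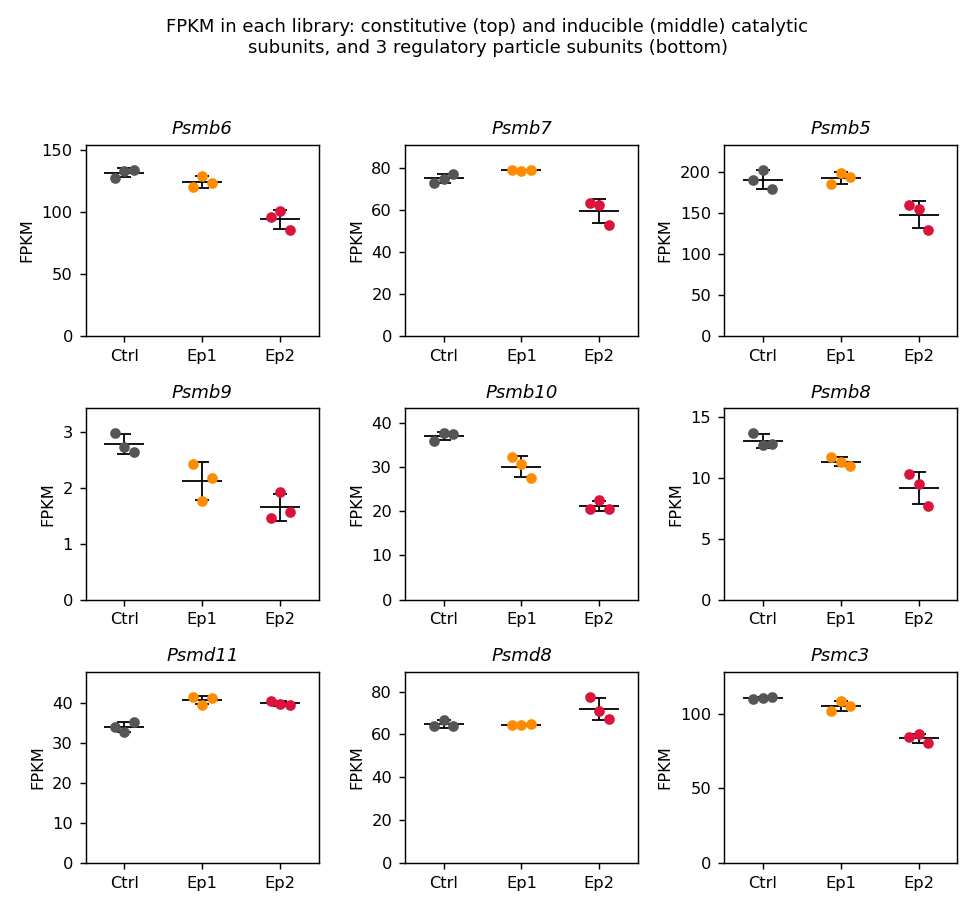
FPKM from 0 upward (y axis) in each library of Ctrl, Ep1 and Ep2 (x axis), with points for libraries and black lines for the mean ± SD (n = 3). The top row holds the constitutive catalytic subunits, the middle row their inducible counterparts and the bottom row 3 subunits of the regulatory particle: all 6 catalytic genes have their lowest mean in Ep2, and Psmd11 is higher in both PDT groups.

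Summed over the members, FPKM was 3013 ± 41.0 (SD, n = 3) in Ctrl, 2992 ± 64.4 in Ep1 and 2626 ± 76.0 in Ep2. Ep1 overlapped with Ctrl (-0.694%), and every Ep2 library lay below every Ctrl library (-12.8%). The subcomplexes differed in size of change, given here as a description. In such a sum the most abundant members weigh most, and members of a subcomplex differed. In the alpha ring, Psma7 (158 FPKM in Ctrl) differed by -17.8% in Ep2 and Psma1 (64.8 FPKM) by 0.279%. In Ep2 the summed level differed from the Ctrl mean by -18.4% for the base ATPases, -15.9% for the beta ring, -13.9% for the alpha ring, -7.94% for the other base subunits and -3.28% for the lid, each without overlap between the libraries. The summed level of the 3 chaperones overlapped between groups (1.27%). The lid was also the only subcomplex whose Ep1 libraries all lay above Ctrl (504 ± 4.14 FPKM in Ctrl and 526 ± 3.17 FPKM in Ep1, 4.29%).

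**Figure D4:**
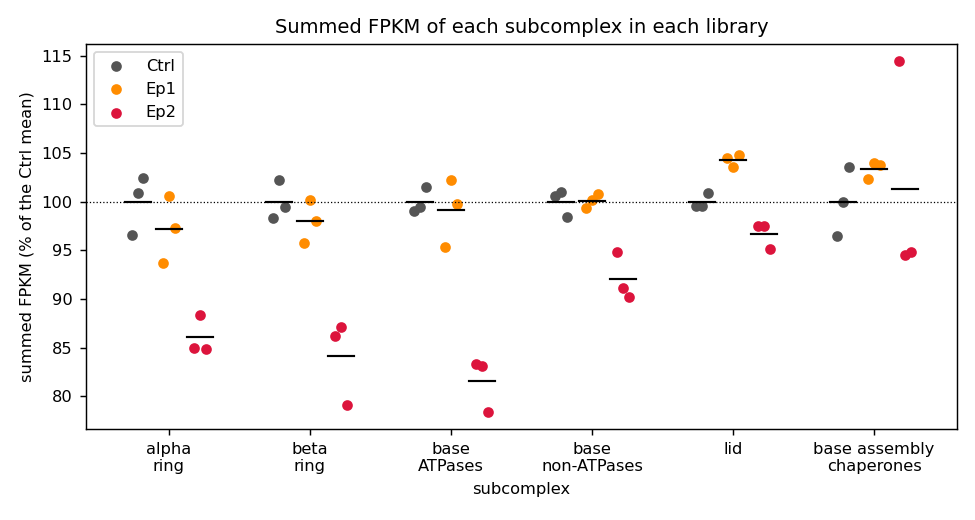
Summed FPKM of the members of each subcomplex (x axis) in each library, as percent of the Ctrl mean (y axis, which does not start at 0), with points for the 3 libraries of each group and a black line at the group mean. The Ep2 libraries lie below Ctrl in all subcomplexes but the chaperones, where Ep2 replicate 1 stands above the other libraries.

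The libraries of a group did not contribute equally. Ep2 replicate 3 had the fewest fragments (16240688) and the highest mitochondrial share (2.49%, against 1.90% to 2.27% elsewhere), and it held the lowest Ep2 value in 24 of 34 members, against 35.7% of all tested genes. Without it, 17 members fell in Ep2 against Ctrl and the median was -0.14. Ctrl replicate 1 was lowest within Ctrl in 20 members (against 32.6% of all tested genes) and Ep1 replicate 1 within Ep1 in 22 (against 37.2%). The coefficient of variation of a member within a group was at most 14.3%, reached by Psmd10 in Ep2.

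Across the 34 members, the difference in Ep2 went along with features of the genes, which is given as a description because the members share libraries and are not independent. Pearson's r between the Ep2 log2 fold change and the Ctrl level was -0.48 (-0.20 over all tested genes), with transcript GC content -0.51 (-0.22 over all tested genes), and with gene length 0.42 (0.078 over all tested genes). With each library corrected for length and GC content, 20 members were again called lower in Ep2, but not the same 20: Psmd2 and Psmd3 lost their calls, and Psma2 and Psma3 were called. Of the members, 7 overlap another gene of more than 1 FPKM, for example Psmc3 with Slc39a13 and Psmb7 with Nek6 on the opposite strand. On the same strand, Psmd13 overlaps Gm15542 (10.4 to 14.2 FPKM) and Psma2 overlaps AW209491 (3.57 to 5.62 FPKM). Whether the counting used the strand is not given in the sources used here, so reads of pairs on opposite strands may not be separated. For pairs on the same strand, a strand setting would not separate the reads.

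The inducible catalytic subunits, which replace their constitutive partners in the immunoproteasome, were lower in Ep2 as well. In Ep2 3 of 3 were called lower (100%, against 29.3% of all tested genes), and in Ep1 1 was (33.3%, against 4.97%). Psmb10, the partner of Psmb7, was at 36.0, 37.7 and 37.6 FPKM in Ctrl, 32.2, 30.6 and 27.5 FPKM in Ep1, and 20.6, 22.5 and 20.4 FPKM in Ep2. The groups were fully apart at each dose. It fell by 0.29 (SE 0.0615, adjusted p = 0.0206, limma) in Ep1, a call lost in 5 of 18 alternatives, and by 0.78 (SE 0.0615, adjusted p = 1.35e-05, limma) in Ep2. Psmb8, the partner of Psmb5, was at 13.7, 12.7 and 12.8 FPKM in Ctrl, 11.7, 11.3 and 11.0 FPKM in Ep1, and 10.3, 9.53 and 7.73 FPKM in Ep2, and it fell by 0.47 in Ep2 (SE 0.0864, adjusted p = 0.00145, limma). Psmb9, the partner of Psmb6, was at 2.98, 2.74 and 2.63 FPKM in Ctrl, 2.43, 1.76 and 2.18 FPKM in Ep1, and 1.46, 1.93 and 1.56 FPKM in Ep2, and it fell by 0.52 in Ep2 (SE 0.0978, adjusted p = 0.00174, limma). In all 3 genes each PDT library lay below each Ctrl library. Of all tested genes, 20.5% lay fully below Ctrl in Ep1 and 32.7% in Ep2. The Ep1 differences of Psmb8 (-0.19) and Psmb9 (-0.28) did not pass.

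The constitutive subunits stayed the more abundant form in every library. The FPKM ratio of Psmb7 to Psmb10 was 2.02 ± 0.0317 (SD, n = 3) in Ctrl, 2.63 ± 0.216 in Ep1 and 2.82 ± 0.247 in Ep2, with Ctrl below every PDT library. The ratio of Psmb5 to Psmb8 was 14.6 ± 1.14, 17.0 ± 1.06 and 16.1 ± 0.674, and that of Psmb6 to Psmb9 was 47.4 ± 4.09, 59.8 ± 12.3 and 57.4 ± 6.90, respectively. The ratio to Psmb8 overlapped between all groups, and the ratio to Psmb9 overlapped between Ep1 and Ctrl but lay above Ctrl in every Ep2 library.

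Further genes of the pathway were counted in the same way, and their shares are set beside those of all tested genes, which were 6.32% higher and 4.97% lower in Ep1 and 23.9% higher and 29.3% lower in Ep2. The lists are short, and no list was tested as a set. Of 6 tested genes of proteasome assembly or nuclear import, 5 fell (83.3%) and 1 rose (16.7%) in Ep2, and 1 rose in Ep1 (16.7%). The genes that fell were Pomp and the Psmg chaperones of the core. Paaf1 was not matched. Psmg1, a chaperone of alpha ring assembly, was at 16.0 ± 1.23, 14.7 ± 1.31 and 10.0 ± 0.569 FPKM (SD, n = 3) in Ctrl, Ep1 and Ep2 and fell by 0.63 in Ep2 (adjusted p = 0.000114, limma). The gene that rose was Akirin2, which helps bring proteasomes into the nucleus. It rose at both doses, by 0.35 in Ep1 (adjusted p = 0.0165, limma) and 0.30 in Ep2 (adjusted p = 0.00494, limma). Of the 2 other subunits listed, Adrm1, a ubiquitin receptor, fell by 0.16 in Ep2 (adjusted p = 0.0283, limma), a call lost in 7 of 18 alternatives. Of the 5 activators and inhibitors of the core, 2 rose (40%) and 3 fell (60%) in Ep2, and 0 were called in Ep1 by limma. At an unadjusted limma p below 0.05, 1 was higher and 1 was lower in Ep1, against 1747 and 1707 of all 11727 tested genes. Psme1, a subunit of the interferon-inducible activator, fell by 0.22 (adjusted p = 0.00254, limma), and Psmf1, an inhibitor, rose by 0.17 (adjusted p = 0.0284, limma), a call lost in 6 of 18 alternatives.

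Of 7 enzymes and cofactors that act beside the proteasome, 3 rose in Ep1 (42.9%, against 6.32%), and 2 rose and 1 fell in Ep2 (28.6% and 14.3%, against 23.9% and 29.3%). Zfand5, a proteasome-binding zinc finger protein that promotes degradation, was at 14.0, 12.5 and 13.8 FPKM in Ctrl, 22.7, 19.0 and 20.4 FPKM in Ep1, and 24.2, 24.2 and 24.8 FPKM in Ep2. All PDT libraries lay above Ctrl, and it rose by 0.58 in Ep1 (SE 0.0671, adjusted p = 0.00521, limma) and 0.82 in Ep2 (SE 0.0671, adjusted p = 1.65e-05, limma). Uchl5, a deubiquitinase of the regulatory particle, fell by 0.52 in Ep2 (adjusted p = 0.000104, limma). Of the 5 ubiquitin shuttles, which carry tagged proteins to the proteasome, 1 rose in Ep1 (20%), and 3 rose (60%) and 2 fell (40%) in Ep2. Ubqln1 rose in both, by 0.15 in Ep1 (adjusted p = 0.0430, limma, lost in 10 of 18 alternatives) and by 0.17 in Ep2. Rad23b rose by 0.15 and Ubqln4 fell by 0.55 in Ep2 (adjusted p = 0.00362 and 4.65e-05, limma).

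The genes of the NRF1 and NRF2 axis did not move as one. Of 9 tested, 3 rose in Ep1 (33.3%, against 6.32%), and 5 rose (55.6%, against 23.9%) and 1 fell (11.1%, against 29.3%) in Ep2. Nfe2l1 was at 68.4, 69.4 and 65.4 FPKM in Ctrl, 65.8, 63.7 and 63.0 FPKM in Ep1, and 63.7, 62.9 and 59.5 FPKM in Ep2. Ep2 lay below Ctrl in every library, and the fall of 0.12 (SE 0.0419, adjusted p = 0.0305, limma) was lost in 8 of 18 alternatives. Nfe2l2 was at 49.7, 49.3 and 47.5 FPKM in Ctrl, 57.5, 53.1 and 56.1 FPKM in Ep1, and 50.4, 59.0 and 66.7 FPKM in Ep2. Each PDT library lay above Ctrl, with Ep2 widely spread, and the rise of 0.25 in Ep2 (SE 0.0853, adjusted p = 0.0319, limma) was lost in 8 of 18 alternatives. The small Maf genes rose at both doses: Maff by 0.58 in Ep1 and 0.60 in Ep2, and Mafg by 0.17 in Ep1 and 0.42 in Ep2 (adjusted p = 0.00600, 0.000176, 0.0233 and 2.27e-05, respectively, limma). The Mafg call in Ep1 was lost in 7 of 18 alternatives. These are mRNA levels, and neither factor's activity was measured.

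Other large complexes of the same cells were read beside the proteasome. Of 7 genes of p97 (the product of Vcp), which extracts ubiquitinated proteins, and its cofactors, 1 fell in Ep1 (14.3%, against 4.97%), and 3 rose (42.9%, against 23.9%) and 1 fell (14.3%, against 29.3%) in Ep2. The cofactor Nsfl1c fell by 0.20 in Ep1 (adjusted p = 0.0124, limma, lost in 3 of 18 alternatives) and by 0.41 in Ep2 (adjusted p = 2.07e-05, limma), and Vcp rose by 0.17 in Ep2 (adjusted p = 0.0104, limma). Of the 10 genes of the COP9 signalosome, a relative of the lid, 1 fell in Ep1 (10%, against 4.97%) and 4 fell in Ep2 (40%, against 29.3%). Gps1, one of its subunits, fell by 0.16 in Ep1 (adjusted p = 0.0439, limma, lost in 10 of 18 alternatives) and by 0.51 in Ep2 (adjusted p = 1.56e-05, limma). Of the 8 genes of the CCT chaperonin, which folds actin and tubulin, 0 were called in Ep1 by limma. At an unadjusted limma p below 0.05, 1 was higher and 2 were lower in Ep1, against 1747 and 1707 of all 11727 tested genes. In Ep2 7 CCT genes fell (87.5%, against 29.3% of all tested genes and 37.3% of those that reached an FPKM of 5). Cct3 fell by 0.59 (adjusted p = 5.91e-06, limma). The median log2 fold change in Ep2 was -0.25 for CCT, -0.20 for COP9 and -0.15 for the proteasome subunits, and the differences between these complexes were not tested.

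**Figure D5:**
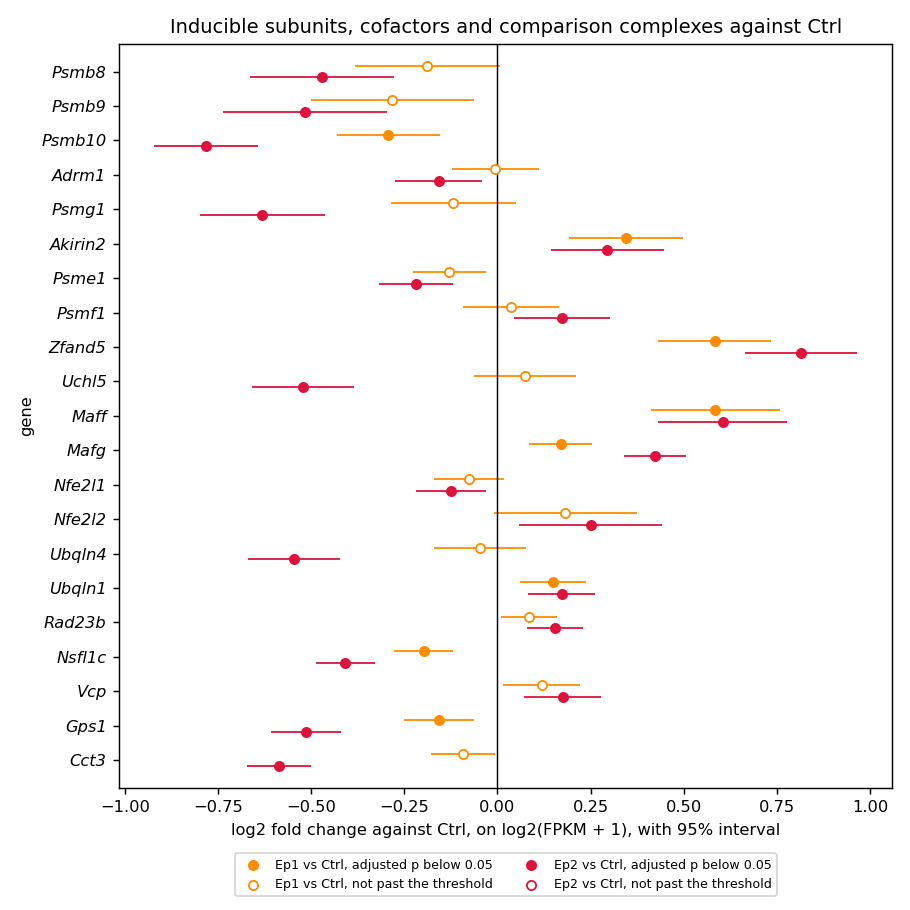
Log2 fold change of FPKM + 1 against Ctrl (x axis) with 95% intervals for the named genes of the companion lists (y axis), in Ep1 (orange) and Ep2 (red), with filled points at a limma adjusted p below 0.05. Zfand5, Maff and Akirin2 lie above 0 at both doses, and Psmb10 reaches -0.78 in Ep2.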

How the data were processed

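Paired-end RNA-seq of 9 libraries was analysed. The authors deposited 1 FPKM value per gene and library, in a joint table of 54532 genes that also lists gene length and position. The deposited single-library tables equal the joint table for 9 of 9 libraries. FPKM normalizes for length and depth, so a few very abundant genes can shift all others. The submitters' processing notes name Bowtie 0.12.2 and mm8, and the methods name another build. The listed positions overlap GRCm38 for 99.9% of 36414 genes and for 36 of 36 members, and GRCm39 for 12.4% of genes, so positions are given as GRCm38. How reads were counted, and with which strand setting, is not given in the sources used here.

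FPKM multiplied by length gave whole multiples of one step (100% of values within 0.05 of a whole number), from which fragments were recovered. Counting error alone is not the limit at this depth, and the spread between libraries sets the precision.

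Members and lists were chosen with earlier results of these data known. One linear model over all 9 libraries was fitted to log2(FPKM + 1) with limma 3.58.1 in R 4.3.3 (lmFit, eBayes with trend and robust estimation), for genes that reached an FPKM of 1 in 3 or more libraries, with Benjamini-Hochberg adjustment over all tested genes within each comparison. The procedure was tested on simulated data. Values in every library are given for the 3 catalytic subunits, the highest and lowest member of each subcomplex in Ep2, the 3 smallest adjusted p-values in Ep1 and genes outside the filter. From other lists the called gene with the smallest adjusted p-value in each direction is named, besides the inducible subunits, Nfe2l1 and Nfe2l2. One further list is not reported here. Promoters came from RefSeq on GRCm38.p6 and were searched with Python 3.11.15, pandas 2.3.3 and numpy 2.4.6. Figures were drawn with matplotlib 3.10.9.

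The alternatives were no filter, a filter at FPKM 5, a pseudocount of 0.1, median centring, a correction for gene length, voom on recovered fragments (at least 10 fragments), only the groups compared, a replicate block and the omission of each library. A correction for gene length and GC content was added after seeing the data (GC known for 34 of 34 members and 98.9% of tested genes).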

Additional observations from a re-analysis of the deposited data

How the results depend on the processing

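Of the 20 members lower in Ep2 than in Ctrl, 15 stayed past the threshold under all 18 alternatives, and Psmd2, Psmd3, Psmd14, Psma4 and Psmd9 did not. The count of lower members was 16 with median centring, 18 with voom, and 16 to 20 when 1 library was left out. Of the 19 members lower in Ep2 than in Ep1, 14 stayed under all 18. Counts of higher members moved more. In Ep1 against Ctrl the count was 0 under the length and GC correction, 2 with only the groups compared, and 0 to 2 when 1 library was left out, and voom called 1 lower member (Psma7), against 0 in the other fits. In Ep2 against Ctrl it was 4 with median centring, 1 under the length and GC correction, 1 with only the groups compared, 1 with the replicate block, and 1 to 2 when 1 library was left out. In Ep2 against Ep1 it was 2 with median centring, 2 with voom, 0 with only the groups compared, 0 with the replicate block, and 0 to 2 when 1 library was left out. The cause was not tested.

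The members' median in Ep1 lay near 0 and changed sign to -0.001151 with voom and -0.008464 under the length and GC correction, and it ranged from -0.008203 (without Ctrl replicate 1) over -0.005671 (without Ep1 replicate 2) to 0.024 when 1 library was left out. The median of Ep2 against Ep1 was -0.096 with median centring. Median centring also moved the share of higher genes among all called genes. It went from 44.9% to 52.7% in Ep2 against Ctrl and from 42.8% to 55.5% in Ep2 against Ep1. Psme4, an activator called higher in Ep2, was at -0.014 (adjusted p = 0.798, limma) under the length and GC correction.

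Libraries with the same replicate number did not deviate together (correlations of -0.0565 to 0.0744), so the numbers were not taken to pair libraries. With the replicate block, 20 members were lower and 1 higher in Ep2 against Ctrl, 1 higher in Ep1 against Ctrl, and 18 lower in Ep2 against Ep1. With 3 libraries a group, the median SE of the members was 0.0454 on the log2 scale, which limits how small a difference can be detected.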
